A study of Mus musculus with 12 samples.

Results

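Keratins are the intermediate filament proteins of epithelial cells, and epiplakin (Eppk1) and desmoplakin (Dsp) are plakins, large proteins that tie those filaments together or to cell junctions. The 6 genes described here, of 12393 named on the array, are Eppk1, Krt7, Krt8, Krt18, Krt19 and Dsp, with the 10 probe sets that the platform annotation assigns to them, out of 22626 that are not controls. Krt8 and Dsp have 3 probe sets each and the other 4 genes have 1 each. Eppk1 was chosen by its rise with ventilation on these same arrays, so its values in the ventilation comparisons, and in the comparisons within one breathing mode that share those arrays, are a description without a test. All 10 probe sets passed the filter on low signals, which asked for a scaled signal of at least 100 on at least 3 of 12 arrays and kept 15855 probe sets. The dim Dsp probe set 1427610_at lay between 72.2 and 143 and reached 100 on all 6 arrays of mice without Nrf2 but on 1 of the other 6. It passed the filter through the genotype in which it is high, so its genotype differences are also given without a test and are left out of the counts for genotype.

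The arrays measured total RNA of lung from CD-1/ICR mice on Affymetrix Murine Genome 430A chips, whose probe sets lie mostly near the 3′ ends of transcripts. The protein Nrf2 (gene Nfe2l2) turns on antioxidant and detoxifying genes, and the comparisons ask how its loss alters the lung's response to a ventilator set to large breaths. The 4 groups, of 3 arrays each, were Nrf2-/- mice ventilated mechanically at a high tidal volume of 30 ml/kg for 2 h (KO HVT), Nrf2-/- mice breathing spontaneously for 2 h (KO SpV), Nrf2+/+ mice ventilated in the same way (WT HVT) and Nrf2+/+ mice breathing spontaneously (WT SpV). The labels name no promoter or Cre for the deletion and give no age. The labels do not say whether an array holds 1 mouse, so the spread within a group may be partly technical. In whole lung RNA, fewer cells of a type and less RNA per cell cannot be told apart.

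A keratin filament is built from pairs of a type II and a type I chain. Krt8 and Krt7 are type II keratins, and Krt18 and Krt19 are type I. Krt8 with Krt18 is the founding pair of simple epithelia, made in alveolar and airway cells, where the network bears mechanical load and is rebuilt by phosphorylation and by new synthesis when cells are stretched or stressed. Desmoplakin anchors these filaments at desmosomes, the spot junctions between neighbouring cells, and in heart muscle it anchors desmin filaments in the same way. Epiplakin, built almost wholly of plakin repeats, binds keratin filaments and is known in mouse liver, pancreas and skin for steadying them under stress.

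By the RefSeq annotation of GRCm38.p6, 4 of the 6 genes lie on chromosome 15. Eppk1 lies at chr15:76101488-76120195, far from the type II keratin cluster that holds Krt7 at chr15:101412403-101427806 and Krt8 at chr15:101996711-102004342. Krt18, the only type I keratin in that cluster, lies beside Krt8 at chr15:102028216-102032026, and the starts of Krt8 and Krt18 face each other across 23873 bases. Krt19 lies in the type I cluster at chr11:100140810-100145926 and Dsp at chr13:38151294-38198577. RefSeq promoter sequences were given for 4 of the 6 genes, and the windows of the facing pair Krt8 and Krt18 are printed because their signals correlated over the arrays, with that of Krt7, a neighbour in the same cluster whose signal did not. Each window runs from 250 bases before the annotated start to 20 bases after it, on the gene's own strand. Capitals mark the only matches to the motifs searched.
Krt8: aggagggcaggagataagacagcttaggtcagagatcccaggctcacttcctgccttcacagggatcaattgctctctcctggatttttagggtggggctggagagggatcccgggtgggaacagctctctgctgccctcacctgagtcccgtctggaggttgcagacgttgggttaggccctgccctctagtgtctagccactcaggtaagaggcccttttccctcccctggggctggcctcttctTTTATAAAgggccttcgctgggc
Krt18: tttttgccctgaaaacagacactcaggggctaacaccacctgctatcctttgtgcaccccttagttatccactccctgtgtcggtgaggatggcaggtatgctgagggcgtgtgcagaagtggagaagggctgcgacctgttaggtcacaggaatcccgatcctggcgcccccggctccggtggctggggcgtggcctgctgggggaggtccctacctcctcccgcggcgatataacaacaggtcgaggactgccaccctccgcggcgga
Krt7: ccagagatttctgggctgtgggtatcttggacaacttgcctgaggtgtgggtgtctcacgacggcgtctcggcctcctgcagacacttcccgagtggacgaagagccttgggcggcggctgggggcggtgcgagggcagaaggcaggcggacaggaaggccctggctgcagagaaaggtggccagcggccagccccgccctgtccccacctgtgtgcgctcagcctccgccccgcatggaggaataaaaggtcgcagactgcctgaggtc
The Krt8 window (minus strand, chr15:102004323-102004592) has 58.1% G and C, that of Krt18 (plus strand, chr15:102027966-102028235) 61.9% and that of Krt7 (plus strand, chr15:101412153-101412422) 65.9%, against a median of 52.6% over 32851 promoter windows of this length. The motifs were searched on both strands. They were the TATA box TATAAA, present in 12.87% of all windows, the AP-1 motif TGANTCA in 7.23%, the core of the antioxidant response element TGACNNNGC in 11.06% and the grainyhead-like motif AACNGGTT in 1.92%. The AP-1 and antioxidant letters can overlap. The capitals in Krt8 are 2 overlapping matches to the TATA box letters, one on each strand, whose first bases lie at -3 and -1 from the annotated start, so they lie across that start and not upstream of it. None of these letters was found in the windows of Krt18 or Krt7.

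On the arrays, the targeted gene Nfe2l2 read between 36.2 and 61.3 on the 6 KO arrays, against 2144 to 3298 on the 6 WT arrays. Array 1 of KO SpV stood apart: its trimmed mean before scaling was 73.9, against 182 to 469 on the other 11, the actin 3′ to 5′ signal ratio, a sign of RNA quality, was 8.76, against 1.39 to 3.10, and it correlated with the others at 0.873 on average, against 0.925 to 0.942 for them. Depth and this ratio also differed between groups. The KO HVT arrays had trimmed means of 182 to 247, below every WT array (279 to 439). Their actin ratios were 2.21 to 3.10, against 1.53 to 1.99 in WT HVT and 2.08 to 2.51 in WT SpV. Group differences below are therefore not separated from array quality, and counts with the actin ratio as a covariate are given at the end. Array 1 of WT SpV is labelled as whole lung and the other 11 as left lobe. All signals below are in arbitrary units after scaling and quantile normalization, and differences are on the log2(signal + 16) scale with their standard errors. Lung markers were bright. Of 8 alveolar type II markers 7 were on the array and all 7 passed the filter, as did 6 of 6 club cell markers. The club markers summed to between 71708 and 93419 on the 12 arrays.

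Epiplakin signal was highest in ventilated lungs of either genotype and lowest in WT lungs that breathed spontaneously. Eppk1 read 1549, 1936 and 2537 on the KO HVT arrays, against 1230, 965 and 1167 on the KO SpV arrays. In the other genotype it read 1814, 1109.7 and 1754 (WT HVT), against 398, 643 and 450 (WT SpV). The ventilated arrays lay above the spontaneously breathing arrays without overlap in both genotypes, an arrangement that 198 of 15855 probe sets (1.25%) shared. The group means were 2008 ± 498 in KO HVT, 1121 ± 138 in KO SpV, 1559 ± 391 in WT HVT and 497 ± 129 in WT SpV (SD, n = 3 each). The difference of HVT from SpV was 0.81 ± 0.25 in KO lungs (1.75-fold) and 1.61 ± 0.25 in WT lungs (3.06-fold). These ventilation values chose the gene and carry no test.

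**Figure D1:**
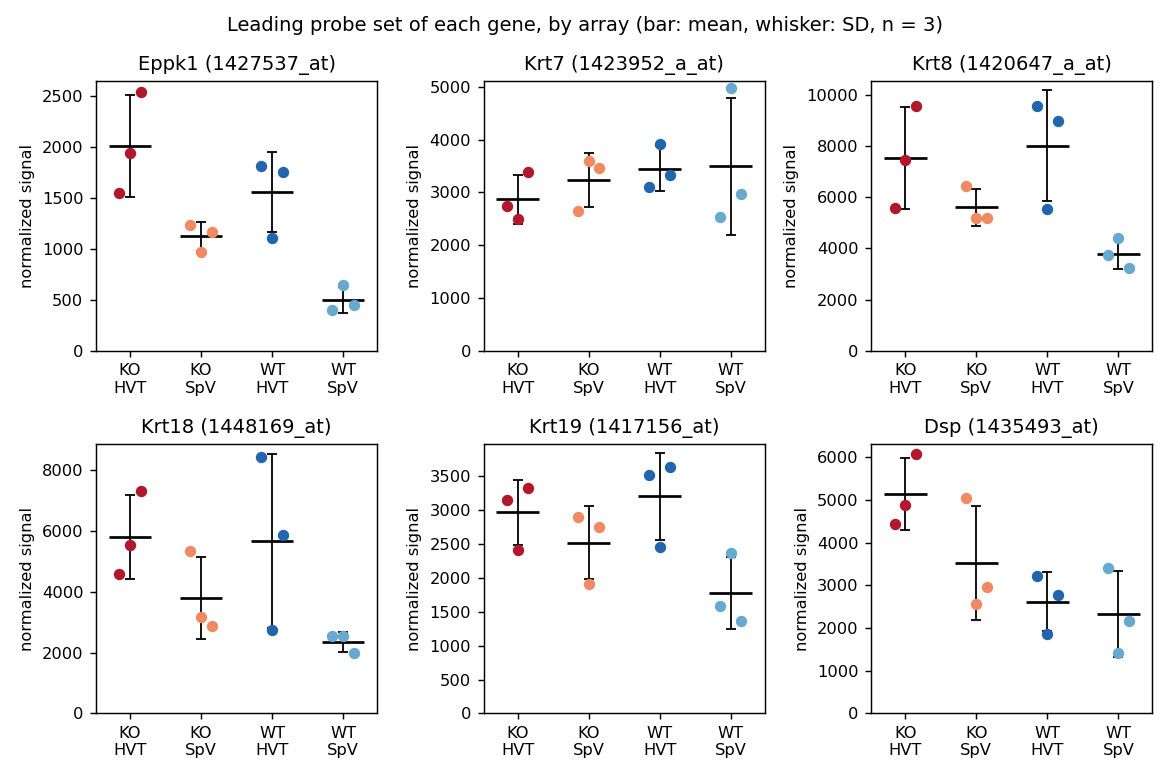
Normalized signal (arbitrary units, linear axes from 0) of the leading probe set of each gene on every array, with bars at group means and whiskers of 1 SD (n = 3). Eppk1 lay at 398 to 643 in WT SpV lungs and at 965 or above in the 3 other groups, and Krt7 overlapped between all groups.

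Genotype is the comparison that did not enter the choice of Eppk1, when it is averaged over both breathing modes. There Eppk1 was higher in KO than in WT lungs by 0.77 ± 0.17 (1.70-fold, 95% interval 0.39 to 1.15, limma adjusted p = 0.0335), a comparison in which 3.27% of probe sets were called in either direction and 1.42% higher. The 3 KO SpV arrays lay above the 3 WT SpV arrays without overlap, as in 8.5% of all probe sets, with a difference of 1.17. KO HVT and WT HVT overlapped, with a difference of 0.37. Both differences are a description, since the low WT SpV values also entered the ventilation rise that chose the gene. The call was narrow. It was lost without array 2 of KO HVT (adjusted p = 0.0679), array 3 of KO HVT (0.0799), array 3 of KO SpV (0.0661), array 2 of WT HVT (0.0863), array 3 of WT HVT (0.0507), array 1 of WT SpV (0.0790) or array 3 of WT SpV (0.0902), although the difference stayed between 0.65 and 0.87 under every omission of 1 array. Without array 1 of KO SpV it was 0.74 (adjusted p = 0.0328). On the deposited values without scaling it was 0.055, where the median of all probe sets shifted by -0.60.

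The simple epithelial pair, Krt8 and Krt18, were both brighter in ventilated than in spontaneously breathing WT lungs on every array. The leading Krt8 probe set, 1420647_a_at, read 9552, 5526 and 8976 in WT HVT lungs, against 3729, 4413 and 3215 in WT SpV lungs. The ventilated arrays lay above the others without overlap, and array 2 of WT HVT was the lowest of them. The difference was 1.05 ± 0.23 (2.07-fold, limma adjusted p = 0.213), which did not pass the test. Its KO values were 5586, 7477 and 9552 under HVT, against 6449, 5198 and 5193 under SpV. Those groups overlapped, with a difference of 0.40 ± 0.23 (adjusted p = 0.558).

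The other probe sets of Krt8, whose suffix x marks probes that may also match other transcripts, gave larger differences. Probe set 1423691_x_at read 6106, 3523 and 5239 in WT HVT lungs, against 1961, 1730.3 and 1743 in WT SpV lungs. In KO lungs it read 3067, 4533 and 5825 under HVT, against 2969, 2689 and 3114 under SpV. The ventilation difference was 1.41 ± 0.23 in WT lungs (limma adjusted p = 0.0819) and 0.57 ± 0.23 in KO lungs (adjusted p = 0.396). Averaged over genotypes it rose by 0.99 ± 0.16 (1.98-fold, adjusted p = 0.0455), the one call among the 9 probe sets other than Eppk1, in a comparison where 0.126% of probe sets were called and 0.0883% were called higher. Of those 9 probe sets, 6 had an unadjusted p under 0.05 there, against 13.2% of all. Probe set 1435989_x_at differed by 1.63 ± 0.30 in WT lungs (adjusted p = 0.130) and by 1.14 ± 0.21 on average (adjusted p = 0.0646). The averaged call on 1423691_x_at held without array 1 of KO HVT (adjusted p = 0.0350), array 1 of KO SpV (0.00999851) or array 2 of WT HVT (0.0260), and was lost without any one of the other 9 arrays (0.0771 to 0.171). It was also lost with the replicate number as a block (0.0651), with trimmed-mean scaling only (0.0581), equal medians (0.0594), a pseudocount of 1 (0.0501), no filter (0.0809) or no intensity trend (0.0875), and on values without scaling (0.999939), while the difference stayed between 0.87 and 1.11 in all of these. Without array 1 of KO SpV, 4 of the 9 probe sets were called higher on average, the 3 of Krt8 and the 1 of Krt18, with limma adjusted p-values between 0.00999851 and 0.0271. Krt19 rose by 0.61 there without a call (adjusted p = 0.0537). Calls were then frequent over the whole array, at 6.23% of all probe sets in either direction and 2.37% higher.

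Krt18, the type I partner of Krt8, read 8435, 2732 and 5869 in WT HVT lungs, against 2543, 2540.2 and 1980 in WT SpV lungs. Array 2 of WT HVT was barely above the highest spontaneous array, so the groups did not overlap but the ventilated arrays spread widely, with a mean of 5678 ± 2856 (SD, n = 3). In KO lungs Krt18 read 4577, 5546 and 7299 under HVT, against 5333, 3163 and 2868 under SpV. The highest of those KO SpV values is on array 1, which stood apart in depth and RNA quality. The ventilation difference was 1.13 ± 0.35 in WT lungs (limma adjusted p = 0.426) and 0.64 ± 0.35 in KO lungs (adjusted p = 0.537).

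Krt19, the type I keratin that lacks most of the tail domain, gave a smaller difference of the same kind. It read 3514, 2461 and 3632 in WT HVT lungs, against 1583, 2369 and 1364 in WT SpV lungs, a difference of 0.87 ± 0.24 (limma adjusted p = 0.362). In KO lungs it read 3154, 2415 and 3320.2 under HVT, against 2896, 1910.1 and 2751 under SpV, groups that overlapped, with a difference of 0.24 ± 0.24 (adjusted p = 0.741).

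Krt7, the other type II keratin, showed no such difference. It read 3095, 3921 and 3334 in WT HVT lungs, against 2529, 4971 and 2973 in WT SpV lungs. In KO lungs it read 2735, 2491 and 3391 under HVT, against 2641, 3592 and 3471 under SpV. All 4 groups overlapped. The ventilation difference was 0.04 in WT lungs (95% interval -0.46 to 0.54) and -0.17 in KO lungs (95% interval -0.67 to 0.33), so a rise of the size seen for the leading Krt8 probe set in WT lungs, 1.05, lies outside both intervals.

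**Figure D2:**
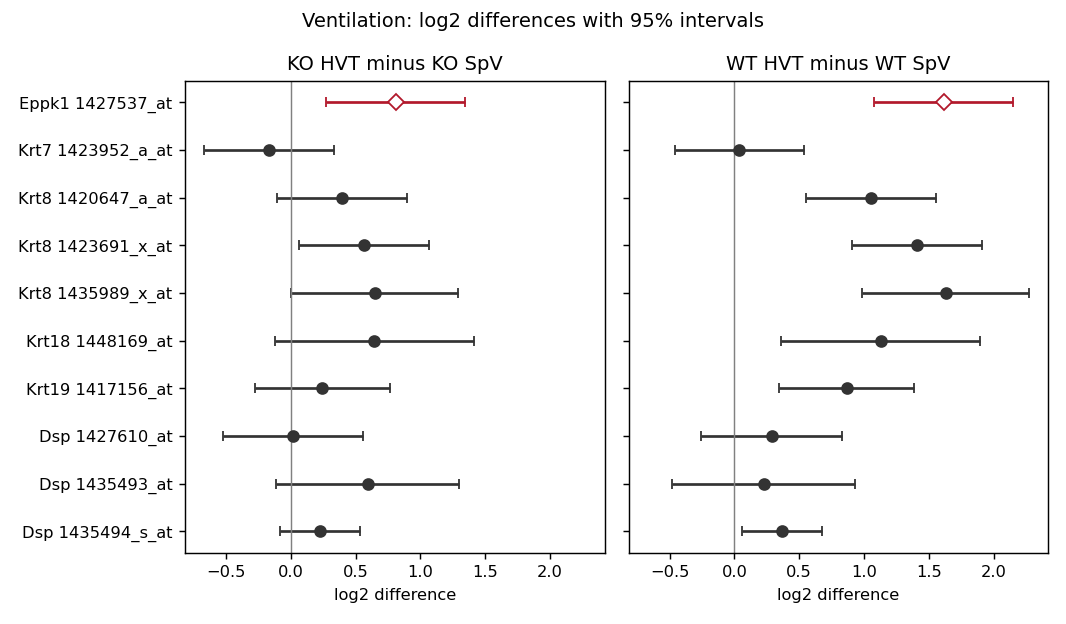
Log2 differences of HVT minus SpV for the 10 probe sets with 95% intervals, in KO lungs (left) and WT lungs (right). Open red diamonds are Eppk1, described without a test, and in WT lungs the 5 probe sets of Krt8, Krt18 and Krt19 lie between 0.87 and 1.63 while Krt7 lies at 0.04.

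By counts, all 5 probe sets of Krt8, Krt18 and Krt19 were higher in ventilated than in spontaneously breathing WT lungs without overlap, an arrangement that 8.39% of all probe sets showed. In KO lungs 0 of these 5 were higher without overlap, against 7.47% of all probe sets. Of the 9 probe sets other than Eppk1, limma called 0 in WT lungs, where 0.0252% of all probe sets were called, and 6 had an unadjusted p under 0.05, against 7.28% of all. In KO lungs limma called 0 of 9, against 0% of all, and 2 had an unadjusted p under 0.05, against 11.1%. Without array 1 of KO SpV, the WT comparison called 2 of the 9, both x-suffixed Krt8 probe sets (adjusted p = 0.0286 for 1423691_x_at and 0.0421 for 1435989_x_at), against 0.321% of all probe sets. The KO comparison then called 0 of the 9, against 6.43% of all. Probe set 1423691_x_at also passed in WT lungs without array 1 of KO HVT (0.0447) or array 2 of WT HVT (0.0350). On all 12 arrays 1 of the 9, Dsp 1435494_s_at, lay higher and 0 lower without overlap in KO lungs, arrangements that 7.47% and 7.49% of all probe sets showed. Without array 1 of KO SpV, 4 lay higher, the leading probe sets of Krt8 and Dsp, Krt18 and Dsp 1435494_s_at, and Krt7 lay lower. With only 2 KO SpV arrays left, 23.6% of all probe sets lay higher and 24% lower.

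The smaller differences in KO lungs were not shown to differ from those in WT lungs. The interaction, KO difference minus WT difference, was -0.65 ± 0.33 for the leading Krt8 probe set and lay between -0.98 and -0.49 over the 5 probe sets of Krt8, Krt18 and Krt19. Limma called 0 of 9 there, where 0% of all probe sets were called, and 2 of 9 had an unadjusted p under 0.05, against 5.04% of all. Eppk1 had an interaction of -0.80, given as a description.

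Most of the gap between the ventilation differences of the genotypes lay in the spontaneously breathing lungs. KO SpV lungs were above WT SpV lungs for all 5 probe sets of Krt8, Krt18 and Krt19, by 0.52 to 0.82, and 4 of the 5 did not overlap. With the dim Dsp probe set, given without a test, 5 of the 9 other than Eppk1 lay higher without overlap, against 8.5% of all probe sets. Limma called 0 of the 8 probe sets counted there, which leave out Eppk1 and the dim Dsp one, against 0.505% of all, and 4 had an unadjusted p under 0.05, against 12.9% of all. In ventilated lungs the 5 probe sets of Krt8, Krt18 and Krt19 differed between KO and WT by -0.16 to 0.15, and 0 of 5 were higher without overlap. Of the 9 other than Eppk1, 1 was, the leading Dsp one, against 11.4% of all probe sets. Limma called 0 of 8 in ventilated lungs, against 0.656% of all, with 1 of 8 at an unadjusted p under 0.05, against 12.5% of all. The sign of the ventilated difference for the leading Krt8 probe set, -0.082, turned to 0.087 with trimmed-mean scaling only. For Krt18 the gap depended in part on array 1 of KO SpV. With that array left out, its genotype difference in SpV lungs was 0.36, against 0.64 on all arrays. Its ventilation differences were then 0.90 in KO and 1.11 in WT lungs.

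**Figure D3:**
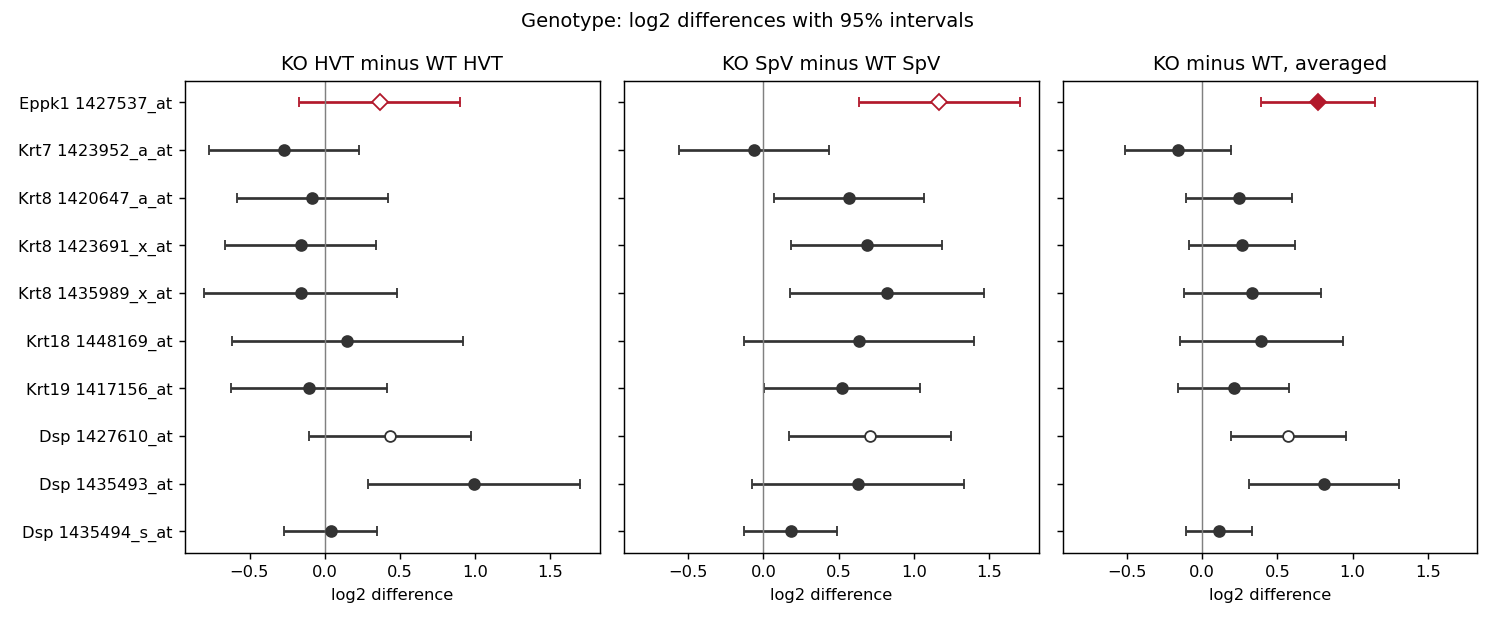
Log2 differences of KO minus WT for the 10 probe sets with 95% intervals, in ventilated lungs (left), in spontaneously breathing lungs (middle) and averaged over both (right). Open symbols are given without a test, red diamonds are Eppk1, tested only in the right panel, where it lies at 0.77, and the leading Dsp probe set lies at 0.81.

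The probe sets of desmoplakin disagreed: the leading one had its larger difference between genotypes, and 1435494_s_at had its larger difference with ventilation. The leading one, 1435493_at, read 4448, 4884 and 6081 in KO HVT lungs, against 3227, 1858 and 2771 in WT HVT lungs. In spontaneously breathing lungs it read 5051, 2560.4 and 2963 (KO), against 3406, 1409.6 and 2154 (WT). Ventilated KO arrays lay above ventilated WT arrays without overlap, by 0.99 ± 0.32 (limma adjusted p = 0.224), and the average over breathing was 0.81 ± 0.23 (adjusted p = 0.0753). Probe set 1435494_s_at read 2549.5 to 2845 in KO HVT, 2140.5 to 2426 in KO SpV, 2269 to 2841 in WT HVT and 1769 to 2311 in WT SpV lungs. It differed between genotypes by 0.11 ± 0.10 on average (adjusted p = 0.591), while the dim 1427610_at differed by 0.57, given without a test. Of the 8 probe sets counted for genotype averaged over breathing, limma called 0, against 3.27% of all, and 1, the leading Dsp one, had an unadjusted p under 0.05, against 19.8% of all. The leading Dsp probe set passed without array 2 of KO SpV (adjusted p = 0.0492) or array 1 of WT SpV (0.0457), and with the replicate number as a block (0.0270). With ventilation the leading probe set differed by 0.59 ± 0.32 in KO lungs (adjusted p = 0.537) and by 0.23 ± 0.32 in WT lungs (adjusted p = 0.956). Probe set 1435494_s_at differed with ventilation by 0.23 ± 0.14 in KO lungs (adjusted p = 0.590), where the groups did not overlap, and by 0.37 ± 0.14 in WT lungs (adjusted p = 0.559), where they did. Its average over genotypes was 0.30 ± 0.10 (unadjusted p = 0.0113, limma adjusted p = 0.231).

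Because desmoplakin is also abundant in heart muscle, markers of that tissue stand beside it. The 5 of 5 heart markers measured summed to 32554 to 36520 in KO HVT, 27077 to 30546 in KO SpV, 15720 to 24743 in WT HVT and 15359 to 22245 in WT SpV lungs, and none was at 0. Their average KO minus WT differences were positive for 5 of 5, and 4 were called higher, against 1.42% of all probe sets. Their part in the Dsp difference was not tested.

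The genes differed in how closely they followed Eppk1 over the 12 arrays. Pearson correlations with Eppk1, on the log2 scale and as a description of arrays that fall in 4 groups, were 0.93, 0.92 and 0.92 for the Krt8 probe sets, 0.87 for Krt18 and 0.86 for Krt19. Krt7 stood at -0.08 and the Dsp probe sets at 0.58 (the leading one), 0.79 (1435494_s_at) and 0.61 (the dim one). Krt8 and Krt18, the facing pair, correlated at 0.95, and Krt8 and Krt7 at -0.07.

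**Figure D4:**
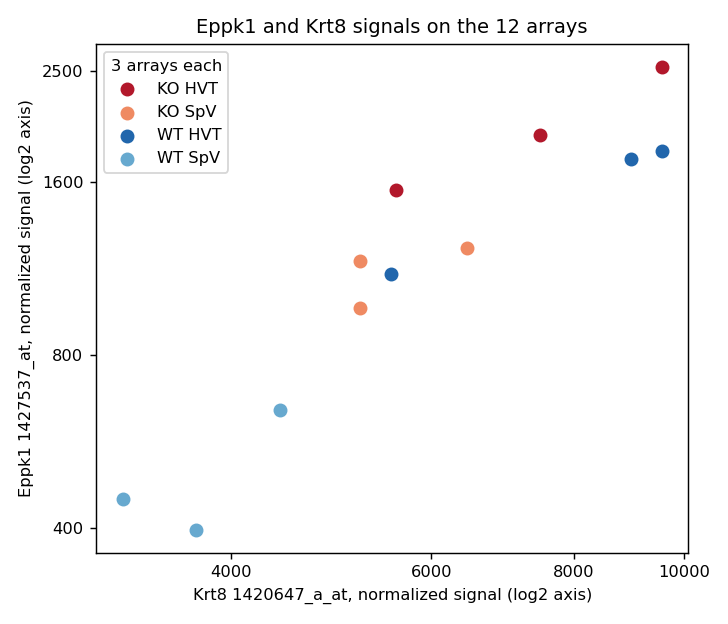
Normalized signal of Eppk1 against that of the leading Krt8 probe set on the 12 arrays (both axes log2-spaced), coloured by group. The 3 WT SpV arrays sit lowest on Eppk1, at 398 to 643, and array 2 of WT HVT, at 1109.7, lies among the KO SpV arrays.

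Among all measured genes, those with the pattern most like Eppk1 over 12 arrays were Glipr1 (Pearson r 0.94), F3 (0.94), Slc45a3 (0.93), Krt8 (0.93) and the phosphate transporter gene Slc20a1 (0.93). F3, which encodes tissue factor, the trigger of blood clotting, was also nearest to Krt8 (0.98), followed by Krt18 (0.95) and Eppk1 (0.93). F3 read 1471, 3031 and 3719 in KO HVT, 1808, 964 and 1155 in KO SpV, 3705, 1421 and 2683 in WT HVT and 689, 780.1 and 490 in WT SpV lungs. As with the leading Krt8 probe set, array 2 was the lowest of WT HVT and array 1 the highest of KO SpV. On the x-suffixed Krt8 probe sets array 1 was not the highest of KO SpV. Nearest to Krt18 were Abca4 (0.95), F3 (0.95) and Krt8 (0.95). Nearest to Krt19 were Fank1 (0.96), Fam83h (0.93), whose product helps arrange keratin filaments, and the forkhead factor gene Foxq1 (0.92). The neighbours of Krt7 were others, Memo1 (0.93), the tropomyosin gene Tpm4 (0.92) and the tetraspanin gene Cd9 (0.91), and those of the leading Dsp probe set were Arfgap1 (0.97), Tex10 (0.96) and the ubiquitin ligase gene Chfr (0.95).

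No other keratin was called. Of 20 other keratins listed, 18 were on the array and 5 passed the filter, and limma called 0 of 5 with ventilation or genotype. Of all probe sets, 0.126% were called for averaged ventilation and 3.27% for averaged genotype, so 0 of 5 says little about keratins. The median difference of the 5 was 0.08 with ventilation averaged over genotypes, beside -0.01 over 9333 genes. The stress keratin Krt6a was dim and read 106, 95.9 and 89.7 in KO HVT, against 25.7, 47.2 and 104 in KO SpV lungs, with 93.5 to 114 in WT HVT, against 94.2 to 98.3 in WT SpV lungs. It stayed past the filter in only 9 of the 12 omissions of 1 array, and most of its signals over 100 were on ventilated arrays. Its averaged difference, 0.42 ± 0.24, is therefore given without a test, although it is 1 of the 5 counted. Krt80 had 0.28 ± 0.20 (adjusted p = 0.586).

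Other plakins and desmosome genes gave 1 call between them, for genotype averaged over breathing, where 3.27% of all probe sets were called and 1.85% lower. Of 5 other plakins measured of 5, 0 were called, against 0.126% of all probe sets for averaged ventilation. The median ventilation difference of these plakins was 0.07. The widest was Macf1, which links microtubules and actin, at -0.42 ± 0.15 (limma adjusted p = 0.249). Its difference was -0.54 without array 1 of KO SpV (limma adjusted p = 0.0126), where 6.23% of all probe sets were called. Periplakin, Ppl, a plakin of squamous and lung epithelium, had 0.33 ± 0.17 (adjusted p = 0.424). Of 12 other desmosome genes, 7 were measured, with median differences of 0.11 with ventilation and 0.04 between genotypes. Plakoglobin, Jup, which sits beside desmoplakin in the desmosome and is shared with adherens junctions, was lower in KO lungs. It read 1293, 1291 and 1204 in KO HVT, against 1662, 1645 and 1596 in WT HVT lungs. In spontaneously breathing lungs it read 1566, 1425 and 1429 (KO), against 2040, 2229 and 2035 (WT). KO arrays lay below WT arrays in both breathing modes, an arrangement whose share over all probe sets was not counted. On average Jup fell by 0.44 (-0.44 ± 0.09, limma adjusted p = 0.0175). Without array 2 of WT HVT the adjusted p was 0.0522, and it was called in the other 11 omissions of 1 array. On values without scaling it was -1.15 (adjusted p = 0.284).

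Hemidesmosome genes, which tie keratins to the basement membrane, had mostly negative differences, without a call. Of all probe sets, 0.126% were called for averaged ventilation and 3.27% for averaged genotype. The 5 measured of 7 had median differences of -0.34 with ventilation and -0.43 between KO and WT, beside -0.01 and 0.01 over all genes, and 5 of 5 were negative between genotypes. The laminin gene Lama3 had -0.34 ± 0.18 with ventilation (adjusted p = 0.441). The tetraspanin gene Cd151, on an x-suffixed probe set, had -0.20 ± 0.11 (adjusted p = 0.458).

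Of 8 other intermediate filament genes, 6 were measured. For genotype averaged over breathing 1 was called, where 3.27% of all probe sets were called and 1.42% higher. Desmin, Des, the muscle filament, was higher in KO lungs by 0.85 ± 0.19 (limma adjusted p = 0.0317). It read 1188, 2402 and 1170.2 in KO HVT, 1566, 1041 and 1234 in KO SpV, 940, 709 and 780 in WT HVT and 809, 766 and 575 in WT SpV lungs. All 6 KO arrays lay above all 6 WT arrays. KO lay higher without overlap for 8.5% of all probe sets in SpV lungs and for 11.4% in HVT lungs. The share with all 6 above all 6 was not counted. The heart muscle markers given beside Dsp were also higher in KO lungs. Its call was lost without array 3 of KO SpV (adjusted p = 0.0580), array 2 of WT HVT (0.0938), array 3 of WT HVT (0.0666), array 1 of WT SpV (0.0550), array 2 of WT SpV (0.0642) or array 3 of WT SpV (0.0895). On values without scaling the difference was 0.13 (adjusted p = 0.820).

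Among 11 measured of 12 keratin partners and chaperones, limma called 0 with ventilation averaged over genotypes, against 0.126% of all probe sets. The median of the 11 was 0.15. Hspa8, a constitutive chaperone, was measured by an x-suffixed probe set, whose probes may also match other transcripts. It read 4952, 8096 and 6657 in KO HVT, against 9657, 16769 and 11985 in KO SpV lungs. In WT lungs it read 8626, 9424 and 6657 under HVT, against 11301, 10973 and 18045 under SpV. Its ventilated arrays lay below the spontaneous ones in both genotypes. In KO lungs alone 7.49% of all probe sets did so, and the share for both genotypes was not counted. The average difference was -0.82 ± 0.18 (adjusted p = 0.0958). Ripk4, a kinase of keratinocyte differentiation, had 0.52 ± 0.13 (adjusted p = 0.116). Without array 1 of KO SpV, where 6.23% of all probe sets were called, these became -0.83 (adjusted p = 0.0129) and 0.48 (adjusted p = 0.0451).

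**Figure D5:**
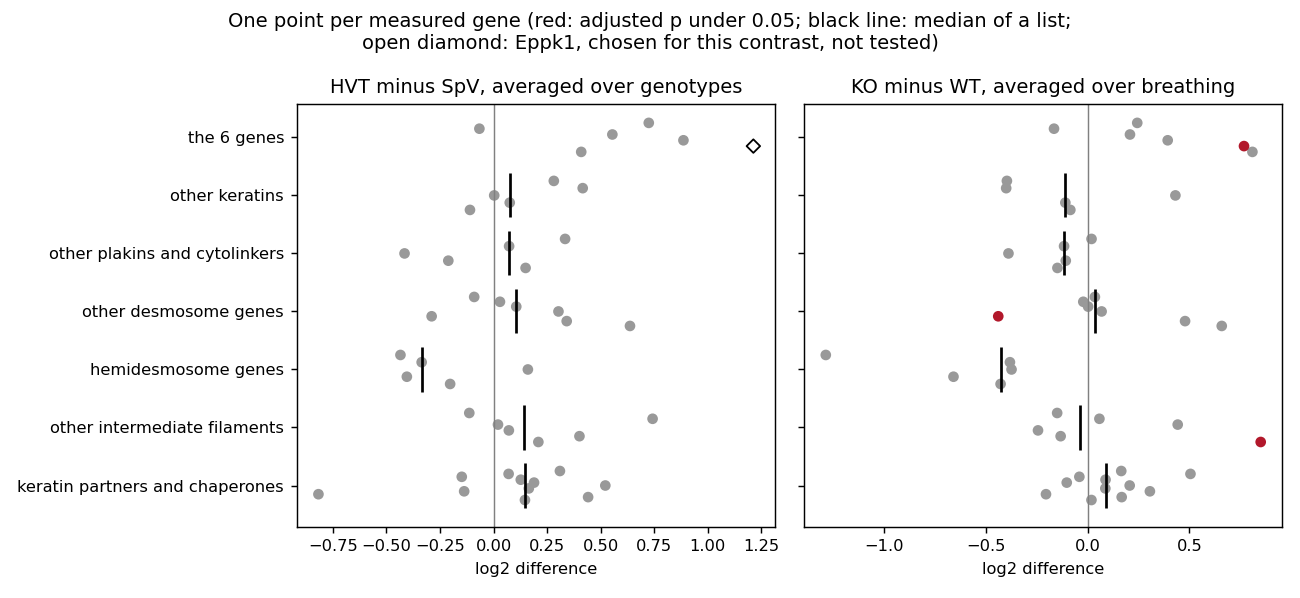
Log2 differences of every measured gene in the lists, for HVT minus SpV averaged over genotypes (left) and KO minus WT averaged over breathing (right), with black lines at list medians and red points at adjusted p under 0.05. Jup (-0.44) and Des (0.85) are the red points outside the 6 genes, and hemidesmosome genes lie below 0 in all but 1 ventilation difference.

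Markers of the cells that make simple keratins were set beside these results. The 8 of 8 pan-epithelial markers summed to 17650 to 19962 in KO HVT, 16467 to 19006 in KO SpV, 18669 to 21716 in WT HVT and 17082 to 19784 in WT SpV lungs, ranges that overlap. For ventilation on average 6 of 8 were positive, with a median of 0.32 and 0 called by limma, against 0.126% of all probe sets. Cldn4, a claudin, had the largest of these differences, 1.34 ± 0.42 (adjusted p = 0.207), and was picked out after its value was seen. With ventilation averaged over genotypes, 4 of 6 club, 2 of 4 ciliated and 1 of 7 alveolar type II markers measured were positive. Their medians were 0.12, -0.02 and -0.12, with 0 called, against 0.126% of all probe sets. Mesothelial cells also make Krt8, Krt18 and Krt19. Of 6 mesothelial markers 3 were on the array and 2 passed the filter. These 2 summed to 578 to 1059 in KO HVT, 216 to 1804 in KO SpV, 643 to 1177 in WT HVT and 1165 to 1458 in WT SpV lungs. Basal and squamous markers were near the bottom of the range, with 2 of 7 past the filter and sums of 133 to 322 on all arrays, and Trp63, the defining factor of basal cells, never exceeded 48.4.

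In the genotype comparison in which Eppk1 was called higher, 6 of 6 measured markers of alveolar type I cells and 6 of 7 of endothelium had negative differences, and 1.85% of all probe sets were called lower. There 5 of 6 club, 4 of 4 ciliated and 2 of 7 alveolar type II markers were positive. Limma called 1 of these, the club gene Scgb3a1, higher (0.60, adjusted p = 0.0330), against 1.42% of all probe sets. Club markers summed to 89895 to 93419 in KO HVT, 81067 to 90430 in KO SpV, 71708 to 82393 in WT HVT and 75513 to 83831 in WT SpV lungs. Alveolar type I markers, 6 measured of 8, summed to 14559 to 19655 in KO HVT, 14735 to 35998 in KO SpV, 27786 to 40175 in WT HVT and 33656 to 44432 in WT SpV lungs, with 2 called lower. Endothelial markers, 7 of 7, summed to 8122 to 9735 in KO HVT, 8421 to 18258 in KO SpV, 14551 to 23702 in WT HVT and 21371 to 28188 in WT SpV lungs, with 3 called lower and Kdr, the exception, at 0.08. With ventilation averaged over genotypes, 6 of 6 type I markers (median -0.35) and 7 of 7 endothelial markers (median -0.70) were also negative. Of these 0 were called, against 0.126% of all probe sets. On array 1 of KO SpV, the type I and endothelial sums were the lowest of that group. The part of these shifts in the keratin and Eppk1 values was not tested.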

How the data were processed

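Total lung RNA was measured on 12 single-colour arrays. The deposited values are a table of signal intensity per probe set, made by the authors with GCOS 1.4, per the submitters' processing notes. The design text names scaling to an average of 500, which the deposited values do not show, so each array was scaled to a trimmed mean of 500 (2% cut at each end) and quantile normalized. Differences were tested on log2(signal + 16) with limma 3.58.1 in R 4.3.3 (4 group means, trended eBayes, two-sided, Benjamini-Hochberg over 15855 probe sets, called at adjusted p under 0.05). The unit is the probe set, and the 64 control probe sets were left out. A gene's leading probe set has the highest mean log2 signal. Of the probe sets, 20380 had 1 gene in the platform annotation, 691 several and 1555 none. The members and gene lists were chosen with earlier results of these data known. From each list the called genes were named, or otherwise the 2 with the smallest p for ventilation averaged over genotypes, and for likeness the 5 genes nearest to Eppk1 and 3 nearest to each other gene. The number of arrays limits the precision. Alternatives were other scalings, pseudocounts and filters, 1 probe set per gene, no intensity trend, a replicate block, the actin ratio as a covariate and leaving out each array. Sequences are from RefSeq, GRCm38.p6.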

Additional observations from a re-analysis of the deposited data

How the results depend on the processing

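Same-numbered arrays were not treated as paired in the main fit. Of 18 such pairs, 6 had deviations correlating over 0.1 (range -0.18 to 0.38). Pairs among WT SpV, WT HVT and KO SpV ran from 0.05 to 0.38, and pairs with KO HVT from -0.18 to 0.09. Whether the replicate numbers mark a shared batch was not tested, so results with them as a block are given here. With the replicate block, 3 probe sets in all were called for ventilation averaged over genotypes (20 without it), 0 of the 9 probe sets other than Eppk1 there (1 without it), and 1 of 8, the leading Dsp one (adjusted p = 0.0270), for genotype averaged over breathing (0 without it). Eppk1 kept its genotype call with it (adjusted p = 0.0397). Counts called over all probe sets moved by more than 1.5 times as follows, and where no value shows otherwise the cause was not tested. For ventilation in WT (4 called), they were 8 with a pseudocount of 1, 9 with one of 64, 8 with a stricter filter, 7 with 1 probe set per gene, 68 with the actin ratio as a covariate and 1 without scaling. For ventilation in KO (0 called), the actin covariate gave 122. For KO against WT in SpV (80 called), they were 31 with 1 probe set per gene, 583 with the actin covariate and 6 without scaling, and in HVT (104 called) 69, 213 and 28. For ventilation averaged over genotypes (20 called), they were 8 with equal medians, 13 with a pseudocount of 1, 2 with no filter, 10 with 1 probe set per gene, 2 with no intensity trend, 756 with the actin covariate and 3 without scaling. For genotype averaged over breathing (518 called), they were 916 and 128 with the last 2 of these. Leaving out 1 array gave 1 to 50 for ventilation in WT, 0 to 1003 in KO, 28 to 303 for genotype in SpV, 30 to 740 in HVT, 0 to 102 for the interaction, 0 to 972 for averaged ventilation and 206 to 875 for averaged genotype, and each of these maxima was without array 1 of KO SpV.

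Of the 9 probe sets other than Eppk1, the actin covariate called 2 for ventilation in WT and 4 for averaged ventilation. The other scalings (trimmed mean only, equal medians, none), the pseudocount of 1, no filter and no trend called 0 for averaged ventilation. With 1 probe set per gene the called Krt8 probe set is not among those tested, and 0 of the 5 that are were called. Omitting 1 array gave 0 to 2 in WT, 0 to 4 averaged, and 0 to 1 of 8 for averaged genotype. Over all probe sets these fits called 1 to 50, 0 to 972 and 206 to 875. The genotype difference of Eppk1 stayed at 0.77 without the trend but its adjusted p became 0.0502, it was 0.055 without scaling, and it was 0.65 to 0.87 with 1 array left out.

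Directions reversed in 42 of the 1778 alternative values of single probe sets. Without scaling, where the median of all probe sets shifted by -0.27 for ventilation in KO, -0.46 for genotype in SpV, -0.77 in HVT and -0.60 on average, ventilation in KO read -0.040 (Krt19), -0.23 (Dsp 1427610_at) and -0.066 (Dsp 1435494_s_at). Genotype in SpV then read -0.0051 (Krt19) and -0.34 (Dsp 1435494_s_at), and in HVT -0.53 (Eppk1), -0.20 (Dsp 1427610_at), -0.85 (Dsp 1435494_s_at) and -0.64 (Krt18). Averaged genotype read -0.50 (Krt19), -0.33 (Krt8 1420647_a_at), -0.40 (Krt8 1423691_x_at), -0.33 (Krt8 1435989_x_at), -0.59 (Dsp 1435494_s_at) and -0.25 (Krt18). The actin covariate gave -0.041 for Krt7 with ventilation in WT, and in HVT -0.0093 (Dsp 1435494_s_at) and -0.092 (Krt18) for genotype. Genotype in HVT also reversed for Krt8 1420647_a_at with trimmed-mean scaling only (0.087) and equal medians (0.012) and for Dsp 1435494_s_at with equal medians (-0.053). With 1 array left out, ventilation in WT ran from -0.16 to 0.32 for Krt7 and -0.086 to 0.55 for Dsp 1435493_at, ventilation in KO from -0.029 to 0.049 for Dsp 1427610_at, averaged ventilation from -0.17 to 0.076 for Krt7 and genotype in SpV from -0.26 to 0.22 for Krt7. Genotype in HVT ran from -0.28 to 0.036 for Krt19, -0.34 to 0.12 for Krt8 1420647_a_at, -0.39 to 0.088 for 1423691_x_at, -0.41 to 0.12 for 1435989_x_at, -0.062 to 0.099 for Dsp 1435494_s_at and -0.31 to 0.50 for Krt18.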
